A study of Rattus norvegicus with 16 samples.

Results

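The cells described here are the intervertebral disc (IVD) cells of injured rat discs, compared between 8 and 2 weeks after surgery. Male Sprague-Dawley rats, 8 weeks old at surgery, received 1 needle stab into each of the discs L4-5 and L5-6 (lumbar disc puncture, LDP), and the uninjured discs L2-3 and L3-4 of the same rats served as controls (CON). The 2 discs of a kind from 1 rat were pooled into 1 library, so a library is 1 animal. Rats 1 to 4 were harvested at 2 weeks and rats 5 to 8 at 8 weeks, so the 4 LDP libraries of one time and the 4 of the other come from different animals and are not paired. Cells were chosen by the study's own class name for disc cells, called chondrocyte in the deposited tables, which gave 67076 cells of the LDP libraries (42338 at 2 weeks and 24738 at 8 weeks) of the 149272 cells in all 16 libraries. Time after injury, age at harvest and any difference in handling or sequencing between the 2 sets of animals cannot be told apart. The study drew its cell classes in each of the 4 groups separately, so a border of the class may lie differently at the 2 times.

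Disc cells build and maintain an extracellular matrix in which a proteoglycan gel, held mainly by aggrecan (Acan), is contained by collagen. The central nucleus pulposus and the inner annulus are rich in type II collagen (Col2a1) and its partner collagens, and the outer annulus is a lamellar, tendon-like tissue rich in type I collagen (Col1a1). Collagen chains are folded in the endoplasmic reticulum with the help of hydroxylases and the chaperone Serpinh1, trimmed outside the cell by proteinases and cross-linked by lysyl oxidases.

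Expression is given as mean CPM, the mean over the disc class cells of a library of the deposited per-cell CPM, which are counts scaled to the same total in every cell. Summed over the disc class, LDP libraries held 57350932 to 79741505 unique molecular identifiers (UMIs) at 2 weeks and 13099258 to 62404976 at 8 weeks. The smallest LDP library, from rat 6 at 8 weeks, held 1313 disc class cells, and 28.3% of its cells had no class name, against 0.354% to 4.06% in the other 8-week LDP libraries. The disc class made up 83.4% ± 11.5 of cells at 2 weeks and 82.2% ± 15.9 at 8 weeks (SD, n = 4 each; exact two-sided permutation test, p = 0.886, where the smallest p allowed is 0.0286). Median UMIs per disc cell were 6237 ± 1279 and 7715 ± 1598 (SD, n = 4 each; exact permutation test, p = 0.20). At most 0.69% of the cell barcodes of a library's disc class recurred in another library. The defining markers were present in the class at both times: Acan lay between 1953 and 4107 mean CPM in the 8 libraries and at most 457 in any other class, and Sox9, the master transcription factor of cartilage-like cells, between 407 and 888. Comp stood between 3667 and 7779 and Fmod between 1086 and 2126. Col2a1 stood between 4506 and 13460 at 2 weeks, where other classes reached 1422, and between 602 and 2435 at 8 weeks, where they reached 358, so that its lowest 8-week disc value lay under the highest value of another class at 2 weeks.

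Genes lower at 8 than at 2 weeks in the injured discs' cells included 18 of 31 fibrous collagen and collagen processing genes, 8 of 21 cartilage matrix genes and 5 of 17 tendon genes, and those higher included 4 of 32 immediate early genes and 8 of 72 ribosomal protein genes. Of 10993 genes tested, 357 (3.25%) were lower and 118 (1.07%) higher at 8 weeks by limma with Benjamini-Hochberg adjustment at 0.05. Counts of calls within a list are to be read beside these shares. The groups did not overlap for 1031 genes (9.38%) with all 8-week libraries below and for 701 (6.38%) with all above. The median log2 difference over all genes was -0.09. Higher genes were 24.8% of those called, against 35.1% with edgeR and TMM scaling, 47.9% with DESeq2 and 42.2% when each library was centred on its median gene, which moved all differences up by 0.11. The counts rested on single libraries: without the 2-week library of rat 4 they were 1127 lower and 380 higher, and without any one other library 119 to 257 lower and 23 to 70 higher. Of the genes tested, 355 reached a mean of 1 CPM at 2 weeks only and 112 at 8 weeks only, so that they were tested through the group in which they were high, and 71 of the lower and 10 of the higher calls are of this kind. Each library is a separate animal, so p-values measure the spread between animals. With 4 animals per group, a gene whose difference missed the threshold is not shown to be unchanged.

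The fibrous collagens and their processing proteins formed the list with the most calls of the 44 lists counted. Of 31 members tested, 18 were lower at 8 weeks, 0 were higher, and the list's median log2 difference was -1.10, against -0.09 over all genes. A gene was tested where its mean over the 8 libraries reached 1 CPM, which 31 of the list's 36 members did, with 21 of 22 in the cartilage list, 28 of 38 in the elastic fibre list, 17 of 21 in the tendon list, 32 of 46 proteases and 32 of 35 immediate early genes. Col1a1, the chain that makes up most of type I collagen, stood at 5651, 11666, 8907 and 7277 mean CPM in rats 1 to 4 and at 564, 1903, 1471 and 1045 in rats 5 to 8. Every 8-week library was thus below every 2-week library, and the group means differed 6.72-fold (log2 difference -2.83 ± 0.35, adjusted p = 0.0047, n = 4 each, limma). Here and below, the value after ± on a log2 difference is the standard error from the limma fit, not an SD. Col3a1, of the thin fibrils laid down in repair tissue, went from 1551, 2123, 1298 and 2072 to 201, 409, 464 and 515 (log2 difference -2.20 ± 0.29, adjusted p = 0.0061, limma). Sparc, a secreted glycoprotein that binds collagen and helps its assembly, was at 19775, 16705, 19276 and 16994 mean CPM at 2 weeks and at 2634, 4168, 4743 and 6079 at 8 weeks. The 2-week libraries of Sparc lay close together, and the 8-week mean was 4.13-fold lower (log2 difference -2.10 ± 0.23, adjusted p = 0.0034, limma).

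Among the chains of other fibrillar and fibril-associated collagens, some passed the test and some did not. Col5a3, a chain of the type V collagen that starts fibrils, fell from between 15.7 and 41.6 to between 3.21 and 6.11 mean CPM (-2.35, adjusted p = 0.0043, limma). Col14a1 and Col12a1, which decorate the fibril surface, fell from between 103 and 356 to between 13.0 and 62.6 and from between 90.8 and 250.2 to between 18.1 and 66.7. Col16a1 fell from between 215 and 299 to between 71.7 and 139 (-1.35, adjusted p = 0.012, limma). The abundant type V chains Col5a1 and Col5a2 and the second type I chain Col1a2 overlapped between the groups, with differences of -1.82, -1.04 and -1.27 that missed the threshold (adjusted p = 0.071, 0.22 and 0.13, limma). Col4a1, a basement membrane chain outside the list, went from 147, 289, 205 and 114 to 29.5, 40.4, 35.9 and 47.3 (log2 difference -2.20 ± 0.27, adjusted p = 0.0047, limma).

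Hydroxylases, a chaperone, propeptide proteinases and cross-linking enzymes of collagen were among the calls, beside other members of the same classes that did not pass. In the endoplasmic reticulum, the lysyl hydroxylase Plod1 went from 97.0, 90.6, 89.9 and 89.1 mean CPM to 53.3, 50.3, 57.5 and 53.4 (log2 difference -0.76 ± 0.12, adjusted p = 0.011, limma), which is a small difference with little spread in either group. The prolyl 3-hydroxylases P3h1 and P3h3 fell by 1.10 and 0.96 on the log2 scale, and the collagen chaperone Serpinh1 fell by 0.81 (adjusted p = 0.0078, 0.02 and 0.036, limma). Outside the cell, Pcolce, which speeds the removal of the C-terminal propeptide, went from 218, 333, 202 and 462 to 70.3, 88.8, 118 and 94.2 (-1.64, adjusted p = 0.012, limma). The propeptide proteinases Bmp1 and Adamts2 were lower by 1.15 and 1.74. The cross-linking enzyme Loxl2 lay between 223 and 333 at 2 weeks and between 114 and 158 at 8 weeks (-1.07, adjusted p = 0.012, limma). The cross-linking enzymes Lox and Loxl4 overlapped between the groups, with differences of -0.23 and -0.64 (adjusted p = 0.43 and 0.47, limma). So did the prolyl 4-hydroxylase subunits P4ha1 and P4ha2, with differences of -0.65 and 0.04 (adjusted p = 0.095 and 0.9, limma), P4ha2 being the 1 member of the list with a difference above 0. Of the 18 calls, 10 held whichever single library was left out.

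**Figure D1:**
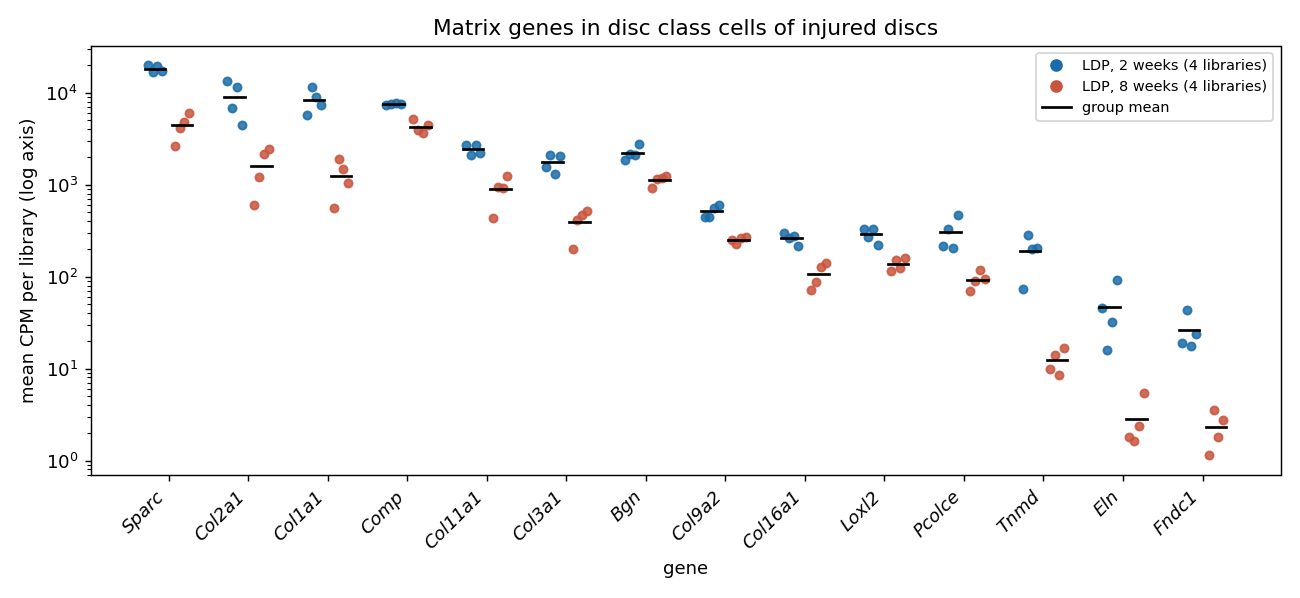
Mean CPM of 14 matrix genes (x axis) in each of the 8 LDP libraries on a log axis (y axis), 2 weeks in blue and 8 weeks in red, with a black line at each group's mean. For all 14 genes the 4 red points lie below the 4 blue points, with gaps that are wide for Sparc, Col1a1, Tnmd, Eln and Fndc1 and narrow for Comp and Bgn.

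Of 21 cartilage collagens and matrix proteins tested, 8 were lower and 0 higher, with a median of -0.76. Col2a1 stood at 13460, 6768, 11526 and 4506 mean CPM at 2 weeks and at 602, 1216, 2138 and 2435 at 8 weeks. The groups were apart, yet the 2-week libraries spanned from 4506 to 13460 (log2 difference -2.57 ± 0.46, adjusted p = 0.017, limma), and the call was lost without rat 3 or without rat 6. Its heterotypic partners fell too: Col11a1 from 2708, 2126, 2705 and 2219.9 to 434, 943, 915 and 1254 (-1.55, adjusted p = 0.018, limma), and Col11a2 from between 381 and 651 to between 164 and 267. Of the type IX chains that coat the fibril, Col9a1 and Col9a2 were lower, by 2.02 and 1.01 on the log2 scale. Comp, a pentameric protein that bridges collagen fibrils, was near constant among the 2-week libraries, at 7375, 7484, 7779 and 7582, and stood at 5109, 3885, 3667 and 4423 at 8 weeks (log2 difference -0.83 ± 0.14, adjusted p = 0.012, limma). Cilp2, a cartilage intermediate layer protein, fell from between 1007 and 1358 to between 349 and 639.9 (-1.24, adjusted p = 0.011, limma).

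Proteoglycans and the hyaluronan network held 1 call per list. Acan was at 3888, 3419.7, 4107 and 2589 mean CPM at 2 weeks and at 1953, 2052, 2898 and 2255 at 8 weeks. These ranges overlapped, and the difference of -0.61 ± 0.18 did not pass (adjusted p = 0.09, limma). Has2, which synthesizes hyaluronan, was the 1 member of 14 called, at 68.6, 48.8, 68.5 and 65.0 and then 19.1, 42.6, 25.0 and 30.8 (-1.12, adjusted p = 0.03, limma). Among 10 small leucine-rich proteoglycans, Bgn alone was called, going from 1848, 2158, 2099 and 2772 to 929, 1155, 1175 and 1254 (log2 difference -0.97 ± 0.16, adjusted p = 0.012, limma). Dcn, its close relative and a collagen-binding proteoglycan as well, stood at 6820.2, 9199, 8937 and 12603 and 8605, 11079.9, 14235 and 10199 with a difference of 0.24 ± 0.21. Lum, a proteoglycan of the same family and an outer annulus marker, stood at 52.6, 261, 96.5 and 268 and then 24.5, 49.3, 61.3 and 49.9, a difference of -1.62 ± 0.50 with overlapping groups that missed the threshold (adjusted p = 0.096, limma). Ogn had a difference of -0.77 (adjusted p = 0.18, limma), Chad and Prelp had differences of -0.14 and -0.26, and Fmod had one of -0.54 (adjusted p = 0.067, limma). The lubricant gene Prg4 lay between 2114 and 2950.4 at 2 weeks and between 2009 and 4206 at 8 weeks.

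Tnmd and Eln, of the tendon and elastic fibre lists, had the largest differences among genes called lower on the log2(mean CPM + 1) scale, which compresses those of low genes. Tnmd, a membrane protein of tendon and outer annulus cells, was at 72.8, 283, 199 and 206 mean CPM at 2 weeks and at 9.96, 14.0, 8.501 and 16.8 at 8 weeks. No 8-week library reached even the lowest 2-week value, and the means differed 15.5-fold (log2 difference -3.73 ± 0.38, adjusted p = 0.003, limma). Eln, which encodes elastin, went from 45.3, 16.04, 32.5 and 92.7 to 1.82, 1.65, 2.35 and 5.39 (log2 difference -3.48 ± 0.47, adjusted p = 0.0067, limma). With Eln, 7 of 28 elastic fibre and matricellular genes were lower and 0 higher: Fbn1, Mfap2 and Mfap5 of the microfibrils, Tnc, Thbs3 and Sparcl1. Tnc, an adhesion-modulating protein of stretched and healing tissue, fell from between 119 and 231 to between 15.7 and 71.8 (-1.84, adjusted p = 0.042, limma). Fn1, the fibronectin gene, stood at 8011, 8692, 10629 and 8102 and then 5997, 7249, 17796 and 9103, a difference of 0.06 ± 0.29 with rat 7 highest. For the abundant members Spp1 and Ctgf every 8-week library lay above every 2-week library. Their differences of 0.63 and 0.85 missed the threshold (adjusted p = 0.11 and 0.16, limma). The list summed to 16842 to 20073 mean CPM per library at 2 weeks and 17841 to 30056 at 8 weeks. Of 17 tendon and ligament genes 5 were lower, among them Abi3bp, which fell from 3473, 3858, 3683 and 2238 to 1489.6, 1691, 1345 and 2215 (-0.97, adjusted p = 0.035, limma). Scx, a transcription factor of tendon progenitors, fell from between 10.5 and 31.1 to between 5.14 and 6.64 (-1.47, adjusted p = 0.03, limma), a call that is absent among inner disc cells. Fndc1, a fibronectin-domain protein named by its size of change, went from 19.2, 42.9, 17.7 and 24.0 to 1.14, 3.53, 1.80 and 2.77 (log2 difference -2.996 ± 0.31, adjusted p = 0.0032, limma).

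Of 32 proteases and inhibitors 6 were lower and 0 higher, where 3.25% and 1.07% of all genes were. In subsets of cells the list had 0 higher and 1 lower of 30 among inner side cells, 0 and 3 without cells holding UMIs of other cell types, and 0 and 4 without cells holding core Schwann cell or pericyte UMIs, where inner side cells are those scoring higher for inner than for outer disc markers. Mmp23 and Adamts9, 2 of the lower members, reached 1 CPM at 2 weeks only, at group means of 6.03 and 4.49 mean CPM then and of 0.727 and 0.794 at 8 weeks. The aggrecanase Adamts4 was at 18.97, 56.8, 27.3 and 38.1 mean CPM at 2 weeks and at 2.10, 3.94, 12.8 and 5.00 at 8 weeks (log2 difference -2.50 ± 0.45, adjusted p = 0.017, limma), with the 8-week library of rat 7 nearest to the 2-week values. Without rat 6 this call was lost, and among inner side cells the difference was -1.08 (adjusted p = 0.30, limma). The gelatinase Mmp2 fell from between 45.9 and 120.2 to between 13.9 and 37.5, and its membrane-bound activator Mmp14 from between 47.8 and 79.7 to between 22.0 and 35.6 (-1.67, adjusted p = 0.029 and -1.11, adjusted p = 0.017, limma). Ctsk, a collagen-degrading cathepsin best known from osteoclasts, fell from 89.0, 193, 110.0 and 132 to 41.8, 53.1, 40.6 and 65.3 (-1.33, adjusted p = 0.019, limma). Htra1, a serine protease abundant in the class, had a difference of 0.00 ± 0.17. No protease call held in all 8 fits that left out 1 library (0 of 6).

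Growth factor pathway lists held calls in both directions. Of 45 genes of TGF-beta and BMP signalling, 7 were lower and 2 higher, where 3.25% and 1.07% of all genes were. The counts differed with the cells taken, with 4 higher and 2 lower of 42 among inner side cells, 3 and 2 without cells holding UMIs of other cell types, and 2 and 3 without cells holding core Schwann cell or pericyte UMIs. Over all genes these subsets gave 67 higher and 123 lower, 74 and 226, and 103 and 234. Fst and Gdf10 reached 1 CPM at 2 weeks only. On the ligand side, Tgfb3 fell from 8.71, 14.0, 11.2 and 13.8 mean CPM to 4.73, 6.80, 4.34 and 6.40 (-0.97, adjusted p = 0.029, limma), and the latent TGF-beta binding proteins Ltbp3 and Ltbp4, which store the ligand in the matrix, were lower by 0.58 and 1.38 on the log2 scale. Grem1, a secreted inhibitor of BMP ligands, was at 1776, 1286, 914 and 1149 and then 670.1, 619.6, 708 and 786 (-0.84, adjusted p = 0.042, limma), and Fst, which binds activins, was between 2.85 and 9.71 and then between 0.476 and 1.28. Fstl1, a follistatin-like glycoprotein, fell from 123.0, 165, 115 and 103 to 21.4, 40.5, 42.0 and 44.8 (log2 difference -1.77 ± 0.24, adjusted p = 0.0074, limma). The 2 higher members, Id1 and Id2, are transcriptional targets of BMP receptors. Id1 was at 39.8, 46.7, 38.4 and 58.5 and then 71.5, 128, 141 and 108 (log2 difference 1.25 ± 0.23, adjusted p = 0.017, limma), and Id2 at 54.5, 59.5, 48.0 and 51.9 and then 77.2, 85.3, 88.5 and 108 (log2 difference 0.73 ± 0.15, adjusted p = 0.025, limma). For Tgfb3 every 8-week library lay below, and for Id1 and Id2 above, every 2-week library. Over 23 alternative settings the difference of Tgfb3 ranged from -1.10 to -0.195, and in 9 of them it was not called.

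Of 15 IGF pathway genes 3 were lower: the ligand Igf2, at 7.62, 13.7, 5.14 and 11.7 and then 2.52, 1.41, 3.11 and 2.09 mean CPM (-1.63, adjusted p = 0.016, limma), the binding protein Igfbp4, which reached 1 CPM at 2 weeks only, and the receptor substrate Irs1. Over all genes, 3.25% were lower and 1.07% higher. The IGF list had 0 higher and 0 lower of 13 among inner side cells, 0 and 1 without cells holding UMIs of other cell types, and 0 and 1 without cells holding core Schwann cell or pericyte UMIs. The abundant binding protein Igfbp7 had a difference of -0.69 with adjusted p = 0.055 (limma). Of 32 Wnt pathway genes 3 were lower, with Wnt11, a ligand, going from 13.4, 16.2, 13.3 and 16.5 to 7.18, 4.92, 5.19 and 8.08 (log2 difference -1.13 ± 0.18, adjusted p = 0.012, limma), and the others being the secreted inhibitors Sfrp1 and Sostdc1. These other calls come from genes tested through the 2-week group alone, with group means of 5.28 and 3.24 mean CPM at 2 weeks and 0.276 and 0.0426 at 8 weeks. The list's count thus rests on Wnt11 alone, where 3.25% of all genes were lower. The list had 0 higher and 1 lower of 26 among inner side cells, 1 and 4 without cells holding UMIs of other cell types, and 0 and 1 without cells holding core Schwann cell or pericyte UMIs. The receptor for parathyroid hormone-related protein, Pth1r, fell from 25.2, 17.5, 21.8 and 29.7 to 8.84, 9.40, 6.60 and 9.51 (log2 difference -1.34 ± 0.19, adjusted p = 0.0078, limma), and Phospho1, a phosphatase of mineralizing cartilage, from between 8.00 and 14.4 to between 2.78 and 5.25 (-1.22, adjusted p = 0.017, limma). In the 23 genes of FGF, hedgehog and PTHrP signalling the other call was Spry2, a feedback inhibitor of receptor tyrosine kinases, which was higher (log2 difference 1.23, adjusted p = 0.045, limma).

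**Figure D2:**
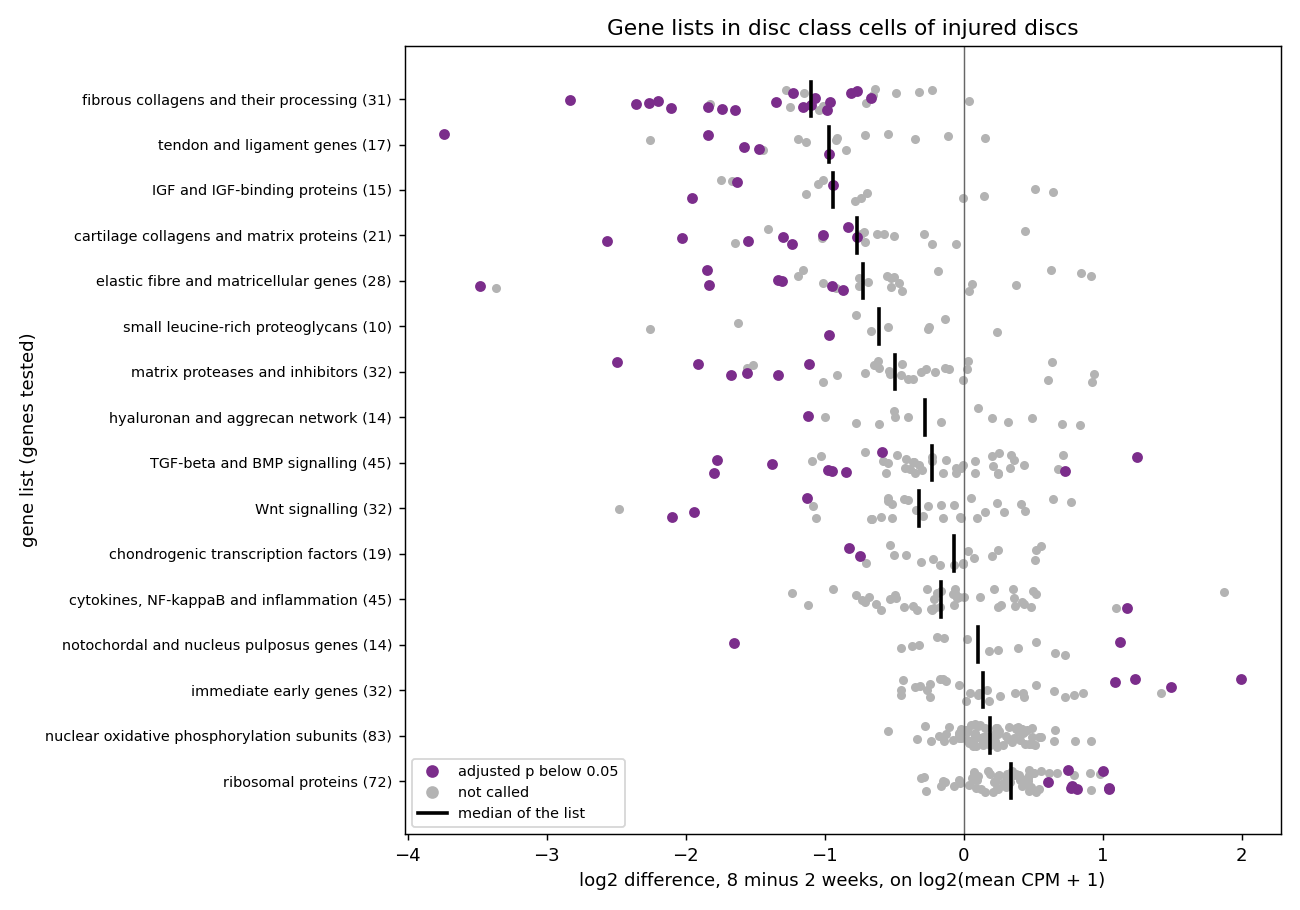
Log2 difference, 8 minus 2 weeks, on log2(mean CPM + 1) (x axis) of the members of 16 gene lists (y axis, genes tested in parentheses), each point 1 gene, called genes in purple, others in grey, black bars the list medians. Purple points lie left of 0 for the 7 matrix lists and right of 0 for immediate early genes and ribosomal proteins.

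Among the genes that were higher, immediate early genes encode regulators that cells induce within minutes of many stimuli. Of 32 tested, 4 were higher and 0 lower, with a median of 0.14. Egr1, a zinc finger transcription factor, stood at 88.3, 90.8, 118 and 81.8 mean CPM at 2 weeks and at 226, 259.5, 518 and 660.0 at 8 weeks, where rats 7 and 8 were highest (log2 difference 1.99 ± 0.32, adjusted p = 0.011, limma). Its relative Egr2 stood at 5.91, 6.20, 5.46 and 3.41 and then 11.5, 12.9, 17.2 and 27.0 (log2 difference 1.49 ± 0.27, adjusted p = 0.017, limma). Zfp36, which destabilizes short-lived mRNAs, stood at 21.3, 27.4, 23.9 and 39.3 and then 65.2, 60.4, 71.4 and 65.2, with tight 8-week values (log2 difference 1.23 ± 0.19, adjusted p = 0.0095, limma). Junb, a component of AP-1, stood at 84.2, 93.5, 104 and 173 and then 193, 184, 282 and 295 (log2 difference 1.09 ± 0.25, adjusted p = 0.04, limma), and its call was lost in 7 of 8 fits that left out 1 library. Over the list, 8 of 32 members had every 8-week library above every 2-week library, against 6.38% of all genes. Those that missed the threshold were Fosl1, Dusp5, Ier5 and Gadd45a, with differences of 1.42, 0.86, 0.79 and 0.73 (adjusted p = 0.064, 0.066, 0.065 and 0.063, limma). Atf3, Btg2 and Klf4, which are abundant in the class, overlapped between the times: Atf3 stood at 709.5, 798, 494 and 592 and then 201, 487, 730.4 and 959, and Btg2 and Klf4 had differences of -0.26 and 0.11. Leaving out cells with UMIs of Schwann cell or pericyte genes gave 6 calls in this list, and leaving out rats 4 and 6 together 6. Both choices were made after seeing the data. Over all genes they gave 103 and 217 higher in place of 118.

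To show the sequences before the genes called together, the 250 bases before their starts were searched for the CArG box, the motif named for its C, A-rich and G stretch that serum response factor binds in immediate early promoters. The RefSeq promoters of build GRCr8 held a CArG box in 1.497% of 33469 entries. It was present in 5 of the 23 tested immediate early genes with an entry (Dusp5, Egr1, Egr2, Klf6 and Zfp36) and in 3 of the 4 called higher. It was in none of the 11 matched promoters of the called fibrous collagen list (18 genes) or of the 5 matched among 8 called ribosomal proteins. CCAAT, read on both strands as CArG boxes were, was in 34.0% of all promoters and in 3 of the 4 called immediate early genes. Promoters of 3 of the called genes are shown to set those with a CArG box beside the one without, with CArG boxes in capitals, 5′ to 3′ on the gene's strand: Egr2 at chr20:21054442-21054691 (minus strand), Zfp36 at chr1:92799109-92799358 (minus strand) and Junb at chr19:40080876-40081125 (plus strand).
Egr2: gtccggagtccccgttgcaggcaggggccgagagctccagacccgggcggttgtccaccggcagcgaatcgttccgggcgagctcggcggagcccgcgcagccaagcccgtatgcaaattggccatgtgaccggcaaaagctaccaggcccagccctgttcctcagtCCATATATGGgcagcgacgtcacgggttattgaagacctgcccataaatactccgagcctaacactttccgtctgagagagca
Zfp36: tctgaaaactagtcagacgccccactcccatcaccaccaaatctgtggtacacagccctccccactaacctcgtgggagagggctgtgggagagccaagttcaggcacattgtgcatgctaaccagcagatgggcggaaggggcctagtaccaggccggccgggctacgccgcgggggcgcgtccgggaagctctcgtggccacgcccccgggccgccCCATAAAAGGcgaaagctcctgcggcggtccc
Junb: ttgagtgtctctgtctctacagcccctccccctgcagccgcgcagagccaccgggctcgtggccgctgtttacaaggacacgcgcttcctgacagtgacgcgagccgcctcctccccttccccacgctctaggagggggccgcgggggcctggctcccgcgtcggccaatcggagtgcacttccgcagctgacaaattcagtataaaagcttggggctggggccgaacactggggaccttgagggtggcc
The box of Egr2 ends 73 bases before the start and that of Zfp36 22 bases before it. The Junb window holds no match, which says only that these letters are not in this stretch.

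Other genes named for their rise belonged to no single list. Creg1, a lysosomal glycoprotein, had the largest rise, from 13.4, 18.1, 11.1 and 9.32 mean CPM to 71.1, 53.6, 45.3 and 49.0 (log2 difference 2.01 ± 0.22, adjusted p = 0.0034, limma). Tmem200c, a membrane protein, went from 5.88, 6.80, 4.53 and 5.03 to 20.6, 20.3, 17.8 and 26.3 (log2 difference 1.76 ± 0.18, adjusted p = 0.003, limma). Lect2, a secreted chondromodulin-like protein, rose from between 5.57 and 11.7 to between 20.1 and 35.1, and Epha2, an ephrin receptor, from between 7.84 and 16.8 to between 18.9 and 55.8 (1.44, adjusted p = 0.013 and 1.44, adjusted p = 0.036, limma). Rasl12, a small GTPase of the Ras family, stood at 8.89, 10.3, 6.97 and 6.43 and then 44.9, 20.2, 18.6 and 18.2, with rat 5 far above the other 8-week libraries. Nhp2 and Snrpf, small RNA-binding proteins of nucleolar and spliceosomal particles, were higher by 1.20 and 1.19. Snrpf stood at 82.0, 79.7, 83.2 and 99.9 and then 213, 212, 177 and 189 (log2 difference 1.19 ± 0.13, adjusted p = 0.0043, limma). Krt18, a keratin of notochordal nucleus pulposus cells, was low in all libraries and higher at 8 weeks, at 2.64, 1.55, 3.21 and 2.43 and then 6.14, 7.26, 6.83 and 5.53 (1.12, adjusted p = 0.012, limma). It was the 1 of 14 notochordal genes called higher, and Ptn, a heparin-binding growth factor, was the 1 called lower (-1.65, adjusted p = 0.02, limma). Over all genes, 1.07% were higher and 3.25% lower.

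**Figure D3:**
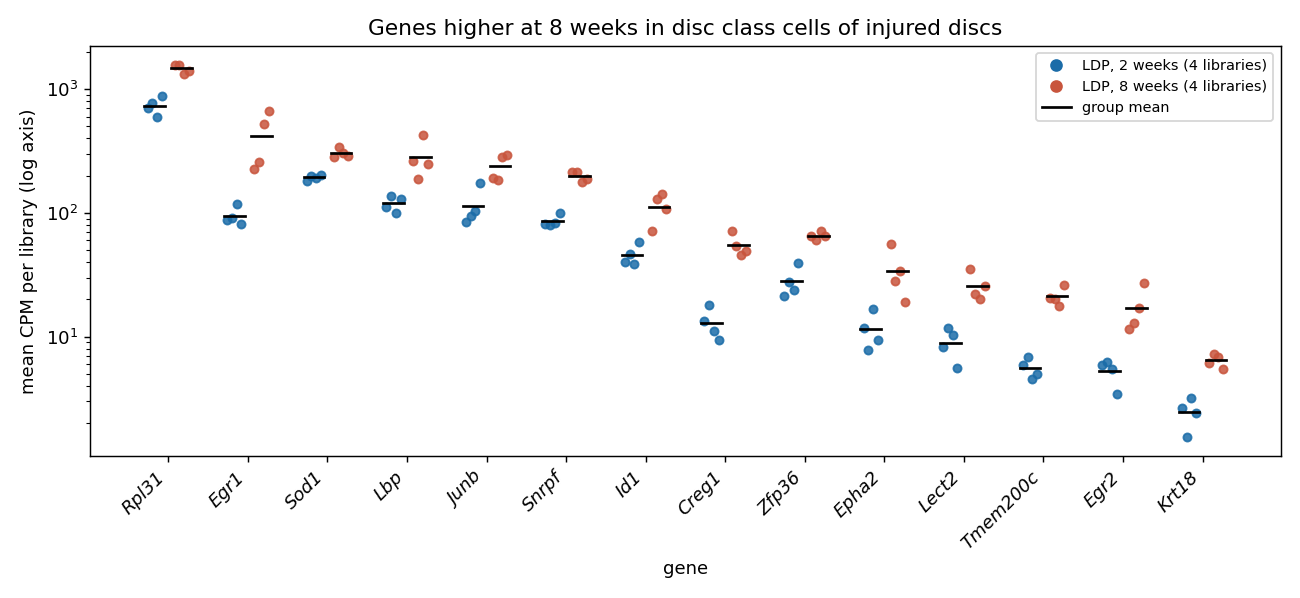
Mean CPM of 14 genes that were higher at 8 weeks (x axis) in each of the 8 LDP libraries on a log axis (y axis), 2 weeks in blue and 8 weeks in red, with a black line at each group's mean. In all 14 the red points lie above the blue ones, with a wide spread at 8 weeks for Egr1 and Epha2 and a narrow one for Zfp36 and Snrpf.

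Of 72 cytosolic ribosomal protein genes, 8 were higher and 0 lower, where 1.07% and 3.25% of all genes were. The list's median was 0.34. Rpl31, a protein of the large subunit, stood at 699, 779, 589.5 and 878 mean CPM and then at 1578, 1572, 1324 and 1397, with no overlap (log2 difference 1.01 ± 0.15, adjusted p = 0.0094, limma). The calls in this list fell to 3 with edgeR and TMM scaling. They were 19 without rats 4 and 6, a choice made after seeing the data. That choice gave 217 higher of all 10993 genes in place of 118. Ribosomal reads made up a median of 11.8, 12.3, 11.0 and 16.3% of a disc cell's counts at 2 weeks and of 17.9, 15.4, 15.3 and 14.7% at 8 weeks, with rat 4 inside the 8-week range. Ribosomal protein genes have many processed copies in the genome, and how shared reads were assigned is not given in the sources used here. None of 83 nuclear oxidative phosphorylation subunits was called by limma (unadjusted p under 0.05 for 23 higher and 1 lower, 0 with edgeR), with a median of 0.19. Without rats 4 and 6, 8 of these subunits were called higher and 0 lower. Sod1, the cytosolic superoxide dismutase, was the 1 of 36 antioxidant genes called, at 179.6, 199, 192 and 203 and then 282, 341, 304 and 286 (log2 difference 0.64 ± 0.12, adjusted p = 0.022, limma).

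Of 45 cytokine, NF-kappaB and inflammation genes, 1 was higher and 0 lower, where 1.07% and 3.25% of all genes were. That gene was Lbp, which presents bacterial lipopolysaccharide to its receptor, at 112, 136, 99.5 and 130.3 mean CPM and then 265, 186, 425 and 249.5 (log2 difference 1.17 ± 0.23, adjusted p = 0.024, limma). Cxcl14, a chemokine abundant in the class, had a difference of -0.23, and Tnfrsf11b, the decoy receptor osteoprotegerin, one of 0.49 ± 0.29. Lcn2, an iron-binding acute phase protein also made by granulocytes, stood at 13.2, 13.8, 6.98 and 15.1 and then 19.6, 34.8, 131 and 48.7, which did not overlap, with adjusted p = 0.059 (limma). None of 22 interferon and class I genes was called by limma (unadjusted 1 higher and 5 lower, 0 with edgeR). Of 16 genes in the complement list 3 were lower, namely C7, of the membrane attack complex, which reached 1 CPM at 2 weeks only, and C1qtnf2 and C1qtnf3, which share a C1q domain but are not complement proteins. C1qtnf1, a further relative outside the list, fell from 13.2, 22.97, 15.4 and 28.8 to 2.64, 2.74, 4.92 and 3.04 (log2 difference -2.25 ± 0.26, adjusted p = 0.0043, limma).

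The remaining lists are given by their counts, to be read beside the 1.07% of all genes that were higher and the 3.25% that were lower. Proliferation genes had 1 higher and 2 lower of 29: Pcna, the sliding clamp of DNA replication, was higher (0.58, adjusted p = 0.047), and Mki67, which marks cycling cells, and the cyclin Ccnd2 were lower (-1.44, adjusted p = 0.03 and -0.70, adjusted p = 0.034, limma). Mki67 stood at 4.22, 3.64, 11.3 and 6.80 mean CPM and then 1.297, 1.11, 2.47 and 1.57. The proliferation list had 0 higher and 0 lower of 28 among inner side cells, 1 and 0 without cells holding core Schwann cell or pericyte UMIs, and 0 and 1 with edgeR and TMM scaling. Of its calls, 0 held in all 8 fits that left out 1 library. Chondrogenic transcription factors had 0 higher and 2 lower of 19, the lower ones being Sox8 and Barx1, while Sox9 stood at 532, 532, 542 and 407 and then 888, 549, 667 and 818, which did not overlap but missed the threshold (0.52, adjusted p = 0.12, limma). Hypertrophy and mineralization genes had 0 higher and 2 lower of 21. Nerve and vessel guidance genes had 0 higher and 2 lower of 32 (Ptn and Sema3b, the latter at 1 CPM or more at 2 weeks only), clock genes 0 higher and 1 lower of 17 (Rora), cell cycle inhibitors and senescence genes 0 higher and 1 lower of 18 (Glb1), and hypoxia and glycolysis genes 0 higher and 1 lower of 37 (Pfkm). Endoplasmic reticulum chaperones had 0 higher and 1 lower of 29, the lower one being P4hb, which is also a subunit of the collagen prolyl 4-hydroxylase. Lipid and glucocorticoid-responsive genes had 0 higher and 2 lower of 29 (Lpl, at 1 CPM or more at 2 weeks only, and Scd). None of 12 Hox genes and 18 heat shock genes was called by limma or edgeR (unadjusted, 1 and 4 higher, 2 and 1 lower), with medians of -0.15 and 0.10. Heat shock genes had 2 higher among inner side cells, 2 without cells holding core Schwann cell or pericyte UMIs and 2 without rats 4 and 6. Over all genes these settings gave 67, 103 and 217 higher. The Hox median was 0.098 among inner side cells. Aqp1, a water channel of vessel and nucleus pulposus cells and no list member, fell from 11.7, 39.5, 17.1 and 34.9 to 4.58, 4.12, 3.29 and 3.43 (log2 difference -2.32 ± 0.34, adjusted p = 0.0086, limma).

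Genes of other cell types were measured in the class as well. Of 12 pericyte and smooth muscle genes 8 were tested and 3 were lower: Rgs5, a marker of pericytes, Myh11, the smooth muscle myosin, and Abcc9, a channel subunit. Myh11 stood at 19.4, 34.4, 14.9 and 11.8 mean CPM and then 0.698, 1.60, 3.47 and 1.90 (log2 difference -2.83 ± 0.35, adjusted p = 0.0047, limma). Rgs5 stood at 10.9, 19.97, 7.67 and 9.60 and then 0.0538, 0.247, 2.38 and 0.0567, so that 3 of the 8-week libraries were near 0. Rgs5 and Abcc9 passed the filter only through the 2-week group, with 8-week means of 0.685 and 0.553 mean CPM, as did Egfl8 of the Schwann cell list at 0.647. The whole list summed to 118 to 180.4 mean CPM per library at 2 weeks and 59.0 to 92.4 at 8 weeks. Of 11 Schwann cell genes 8 were tested and 2 lower (Egfl8 and Cnp), with sums of 854 to 1047 and 762 to 1212, mostly of Pmp22. When cells with at least 1 UMI of any of 15 core Schwann cell or pericyte genes were left out, 234 genes were lower and 103 higher, and the fibrous collagen list had 17 lower in place of 18. The Schwann cell and pericyte lists then had 0 and 0 lower, where the choice of cells used Egfl8, Rgs5, Myh11 and Abcc9 themselves. Col1a1 and Tnmd then differed by -2.76 and -3.74, close to the values in all cells. The cells left out made up 12.1, 12.9, 9.78 and 8.90% of the class at 2 weeks. At 8 weeks they made up 9.80, 18.5, 10.0 and 13.1%, and the ranges overlapped. In sums over cells of a class, fewer cells of a type and less RNA per cell cannot be told apart.

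Markers of blood and marrow cells varied widely between animals of both times. Erythroid genes (7 of 16 tested, 0 higher and 0 lower, sums of 38.2 to 1411 mean CPM at 2 weeks and 65.7 to 1439 at 8 weeks) were highest in rats 4 and 5, where haemoglobin Hba-a2 reached 1212 and 1291 against 1.39 in rat 1. Cells with 2 or more UMIs of erythroid, granulocyte, lymphoid precursor, myeloid or endothelial genes were 14.8, 13.7, 44.0 and 85.7% of the class at 2 weeks and 94.8, 35.9, 41.7 and 23.02% at 8 weeks. Granulocyte genes (8 of 15 tested, 0 higher and 0 lower, sums of 15.4 to 278 mean CPM at 2 weeks and 40.3 to 214 at 8 weeks) and lymphoid precursor genes (7 of 19 tested, 0 higher and 1 lower, sums of 7.00 to 84.8 mean CPM at 2 weeks and 9.36 to 18.99 at 8 weeks, Ebf1) also spread widely. Myeloid genes had 9 of 20 tested, 0 higher and 0 lower, sums of 48.0 to 115 mean CPM at 2 weeks and 61.8 to 109.7 at 8 weeks. Endothelial genes had 6 of 16 tested, 0 higher and 1 lower, sums of 19.3 to 40.5 mean CPM at 2 weeks and 13.0 to 23.02 at 8 weeks, the call being Egfl7. The defining Cdh5 stood at 0.640, 5.01, 0.994 and 1.86 and then 0.0818, 0.353, 0.594 and 0.231 (adjusted p = 0.11, limma) and reached 1 CPM at 2 weeks only, and Flt1, a receptor of vascular growth factor, stood at 4.36, 4.58, 1.19 and 2.11 and then 10.6, 3.70, 4.23 and 12.6, a difference of 1.06 in the other direction (adjusted p = 0.16, limma). Skeletal muscle genes had 3 of 15 tested, 0 higher and 0 lower, sums of 34.1 to 90.0 mean CPM at 2 weeks and 32.6 to 66.0 at 8 weeks, adipocyte genes 3 of 7 tested, 0 higher and 0 lower, sums of 36.3 to 73.1 mean CPM at 2 weeks and 38.2 to 79.8 at 8 weeks, and bone cell genes 7 of 14 tested, 0 higher and 1 lower, sums of 547 to 1858 mean CPM at 2 weeks and 237 to 1436 at 8 weeks (Ctsk). The 11 T and NK cell genes had 0 tested. Without the cells that held such UMIs, 226 genes were lower and 74 higher, and the fibrous collagen list had 14 lower, the elastic fibre list 4 and the tendon list 3. The part of RNA from other cell types in the differences was not tested.

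The class was also split by a score of inner against outer disc markers. Cells scored on the inner side (nucleus and inner annulus above outer annulus) were 90.7, 78.3, 87.1 and 81.2% of the class at 2 weeks and 96.1, 91.5, 91.9 and 92.9% at 8 weeks, with no overlap. Since Col1a1 and Tnmd are in the outer annulus score and Col2a1 is in the inner one, the split uses genes that were themselves called lower at 8 weeks, and a change in their levels within cells and a change in the make-up of the class cannot be told apart from it. Between 1.85% and 4.77% of cells had inner and outer mean log2 scores within 0.5 of each other. Outer annulus markers had 0 higher and 3 lower of 8 tested (Col1a1, Tnmd and Fibin) and inner disc markers 0 higher and 2 lower of 8 (Col2a1 and Col9a1). Among inner side cells alone, 123 genes of 10745 (1.14%) were lower and 67 (0.624%) higher. There Col1a1 differed by -2.82 (adjusted p = 0.022), Sparc by -2.15 (adjusted p = 0.0082), Col2a1 by -2.65 (adjusted p = 0.018) and Eln by -3.49 (adjusted p = 0.015), limma. Tnmd differed by -2.18 (adjusted p = 0.01), less than in all cells of the class, and Scx by 0.03 (adjusted p = 0.96), limma. The fibrous collagen list had 11 lower of 31, the cartilage list 8 of 21, the elastic fibre list 1 of 27, and immediate early genes 7 higher of 32.

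The same comparison was made in the uninjured CON discs of these rats, to ask which differences were also there without a stab. CON had 1296 genes lower (11.5%) and 823 higher (7.33%) of 11224. Of the genes called in LDP, 117 of the higher and 347 of the lower were tested in CON. There 93 and 270 of them were called in the same direction, and 117 and 334 had the same sign. CON and LDP libraries of a rat come from 1 animal, so the 2 comparisons share their animals. Col1a1 differed by -2.83 in LDP and by -2.26 in CON, Col2a1 by -2.57 and -2.04, Sparc by -2.10 and -1.76, Eln by -3.48 and -2.58, and Creg1 by 2.01 and 1.69. The fibrous collagen list had 25 lower of 31 in CON with a median of -0.92, and ribosomal proteins 18 higher of 72. The cartilage list had 0 higher and 10 lower of 21 in CON, the elastic fibre list 1 and 19 of 29, and the tendon list 0 and 10 of 18. The protease list had 2 higher and 12 lower of 37, the IGF list 0 and 7 of 15, and the TGF-beta and BMP list 5 and 11 of 45. In the immediate early list, 0 of 33 were higher and 0 lower in CON by limma, with a median of 0.21 against 0.14 in LDP. The 4 genes called in LDP, Egr1, Egr2, Zfp36 and Junb, differed by 0.71 ± 0.79, 0.56 ± 0.69, 0.49 ± 0.54 and 0.41 ± 0.59 in CON. Egr1 ranged from 109.7 to 2159.8 among the 2-week CON libraries and from 352 to 513 at 8 weeks. Myh11 and Adamts4, both lower in LDP, differed by -0.11 and -0.02 in CON. Among inner side cells of LDP they differed by -0.74 and -1.08 and were not called (adjusted p = 0.37 and 0.30, limma).

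Of the 24 genes named by size of change, 15 kept their call whichever single LDP library was left out. Egr2 lost it without rat 7, Adamts4 without rat 6, Col2a1 without rat 3 or 6, and Rasl12 without rat 3, 6 or 7. Epha2, Id1, Spry2, Nhp2 and Col14a1 lost it in 4 to 6 of the 8 fits. Among the lists, calls that held in all 8 fits numbered 4 of 8 in the cartilage list, 2 of 7 in the elastic fibre list, 1 of 5 in the tendon list, 2 of 4 in the immediate early list, 2 of 8 in the ribosomal list and 2 of 9 in the TGF-beta and BMP list.

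**Figure D4:**
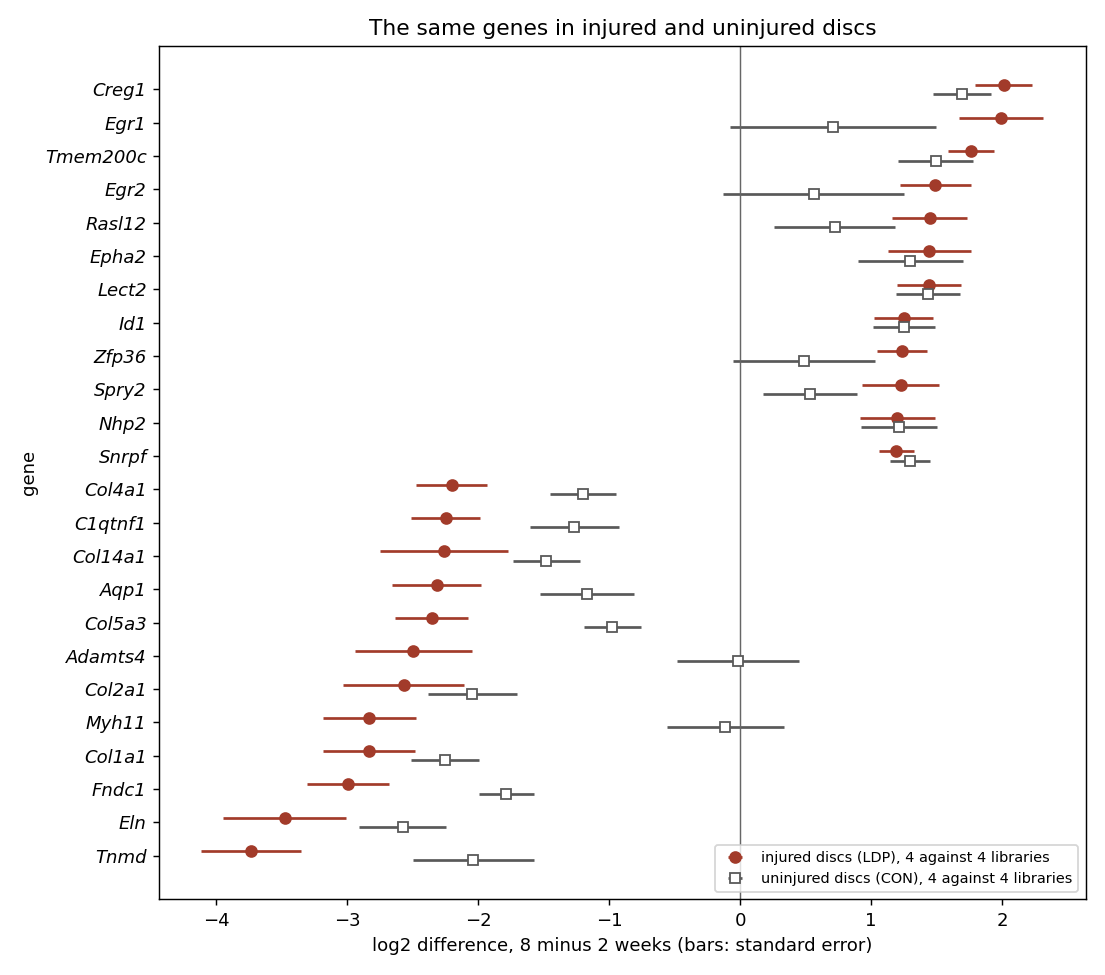
Log2 difference, 8 minus 2 weeks (x axis), with its standard error, of the 24 genes named by size of change (y axis) in injured discs (filled circles) and uninjured discs (open squares), 4 against 4 libraries each. Circles and squares lie on the same side of 0 for every gene, and the squares of Myh11, Adamts4, Egr1, Egr2 and Zfp36 lie within their standard error of 0.

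Whether the 8-week difference in injured discs differed from that in uninjured discs was tested directly over all 16 libraries with the rat as block. Of 11150 genes 0 (0%) were called by limma, with unadjusted p under 0.05 for 28 in which the LDP difference was the higher and 158 in which it was the lower. Both counts together are fewer than an unadjusted cut of 0.05 passes on average where no gene differs. Col1a1 had a difference of differences of -0.58 ± 0.43, Col2a1 of -0.52 ± 0.48 and Sparc of -0.35 ± 0.25, while Tnmd stood at -1.70 ± 0.58, Myh11 at -2.72 ± 0.57 and Adamts4 at -2.48 ± 0.74. Scn7a, a sodium channel, had the smallest p. It stood at 8.503, 14.7, 7.19 and 5.51 mean CPM in LDP at 2 weeks and at 0.0870, 0.679, 0.125 and 0.129 at 8 weeks. In CON it stood at 0.446, 0.578, 4.02 and 0.310 and then 2.75, 5.67, 1.13 and 4.56 (-4.01 ± 0.51, adjusted p = 0.11, limma). Reln (-2.0 ± 0.28, adjusted p = 0.13), Cdh19 (-2.25 ± 0.35, adjusted p = 0.22), Col28a1 (-3.56 ± 0.58, adjusted p = 0.24) and Sox2 (-2.70 ± 0.46, adjusted p = 0.28) had differences of the same sign, at low levels. Scn7a, Reln, Cdh19, Col28a1 and Sox2 lay under 1 mean CPM in every LDP library at 8 weeks. They were thus tested through the groups in which they were higher. Without the rat block, Scn7a, Reln and Sox2 passed the threshold, in a fit that leaves out that CON and LDP libraries of a rat are 1 animal. In the other direction Pak3, Cyr61, Acta1, Casp12 and Scara5 had the smallest p, each with adjusted p = 1. Casp12, a caspase of the endoplasmic reticulum, was called higher in LDP, at 4.97, 7.68, 4.75 and 4.58 and then 10.6, 11.2, 11.0 and 10.1 (0.88, adjusted p = 0.025, limma), and Cyr61, a matricellular protein, stood at 227, 203, 118 and 76.6 and then 367, 182, 290.3 and 278.

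**Figure D5:**
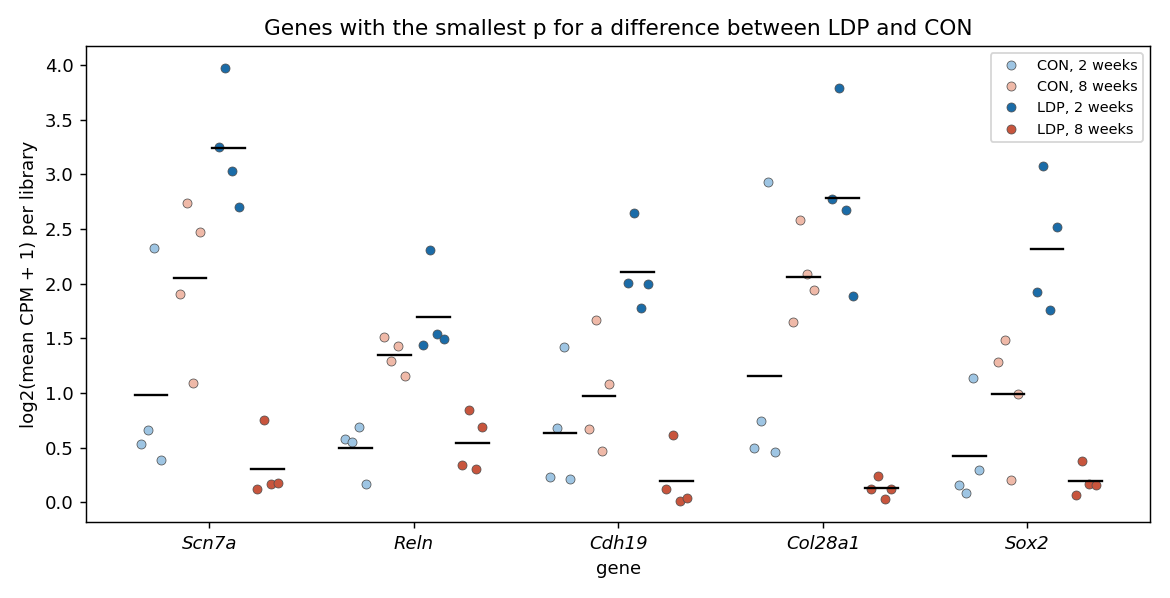
Log2(mean CPM + 1) per library (y axis) of 5 genes with the smallest p for a difference between LDP and CON (x axis), in 4 libraries of each of 4 groups, with black lines at the means. In each gene all LDP libraries at 2 weeks lie above all LDP libraries at 8 weeks, while the CON means lie higher at 8 weeks.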

How the data were processed

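Single-cell RNA libraries (10x Genomics) of injured (LDP) and uninjured (CON) discs from 8 rats were used as deposited, 4 libraries per group. The authors processed reads in Partek Flow on rat build rn6 and filtered cells on mitochondrial share, detected genes and UMIs; the aligner, the annotation and any treatment of doublets or free RNA are not given in the sources used here. The deposited values are log2 of CPM + 1 per cell, beside expected counts per cell (total count) and mitochondrial and ribosomal percent columns. The class names deposited by the authors were used unchanged. Within a tolerance of 0.02, 99.4% of values were whole reads once scaled by the total count, and these reads were summed for the count tests.

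Values were turned back to CPM and averaged over the disc class cells of each library. Genes listed in both groups with a mean of at least 1 CPM over the 8 libraries were tested on log2(mean CPM + 1) with limma 3.58.1 (empirical Bayes, mean-variance trend, R 4.3.3) and Benjamini-Hochberg adjustment at 0.05. Fold changes on this scale understate changes of low genes. CON libraries were tested alike, and the difference of differences over all 16 libraries with the rat as block, since same-numbered LDP and CON libraries are 1 animal. Their deviations from group means correlated between -0.185 and 0.465 over the 8 rats. The LDP libraries of the 2 times are different animals and cannot be paired.

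Cell numbers and depth differed between libraries, so the mean of a small library is less precise, with no counting intervals given for means over cells. Named genes were, in each direction, the 12 called genes with the largest log2 difference, a mean of at least 10 CPM, groups that did not overlap and a symbol of their own, and 5 per direction with the smallest p for the difference of differences. Further genes are members of 44 lists. Members, lists and tests were chosen with earlier results of these data known. Alternatives were edgeR 4.0.16, DESeq2 1.42.0, other pseudocounts, filters, centring and cell choices, and leaving out libraries. The analysis steps were tested on simulated data. Promoter sequences are RefSeq, build GRCr8, which is not the build of the deposited values and was used for sequence only.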

Additional observations from a re-analysis of the deposited data

Results flagged for a closer look

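Among 64 groups of 4 libraries checked for 1 value far from the others, 4 were marked by Dixon's criterion, where chance marks about 1 in 20. Rasl12 stood at 44.9 mean CPM in the 8-week LDP library of rat 5, against 18.2 to 20.2 in the other 8-week LDP libraries. Spry2 stood at 7.80 mean CPM in the 2-week LDP library of rat 4, against 11.8 to 12.6 in the other 2-week LDP libraries. Snrpf stood at 99.9 mean CPM in that same library, against 79.7 to 83.2. The share of cells with no class name was 28.3% in the 8-week LDP library of rat 6, against 0.354% to 4.06% in the others of its group. The cause of these values was not tested.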

How the results depend on the processing

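Of 118 genes higher and 357 lower in LDP, DESeq2 gave 647 and 705, and all 16 libraries in 1 fit with the rat as replicate block gave 534 and 1077. Leaving out 1 LDP library gave 23 to 380 higher and 119 to 1127 lower. A mean of at least 10 CPM gave 180 lower, and centring each library on its median gene gave 205 higher. Inner side cells alone gave 67 higher and 123 lower, and cells without other-cell UMIs 74 and 226. Alternatives chosen after seeing the data gave 234 lower without cells holding core Schwann or pericyte UMIs, 115 lower when inner side cells were also required, and 217 higher and 620 lower without rats 4 and 6. In CON, leaving out 1 library gave 383 to 993 higher and 730 to 1450 lower, against 823 and 1296. For the difference of differences, the fit with no replicate block gave 3 lower against 0, and leaving out 1 rat gave 0 to 13 lower and none higher. Scx turned from lower to 0.026 among inner side cells and 0.044 without core Schwann or pericyte UMIs as well. The replicate block cannot be applied within LDP, where each rat has 1 library. Of 2818 values of named genes and list members under alternatives, 597 kept their direction but no longer passed, 12 newly passed, and 2 (Scx) turned. The cause of these changes was not tested, except that fewer genes or libraries enter some fits.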
